A study of Drosophila melanogaster with 62 samples.

Results

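A set of 37 genes for transcription factors of neural development was followed in fly (Drosophila melanogaster) embryos mutant for genes of the ELAV family. The genes were given as a named list and matched by symbol and gene identifier, and all 37 are among the 17753 genes with a head expression value. The list was drawn up with earlier results of these data known, and Hox genes and hth are not in it. Of the 37 genes, 35 had segments in the authors' annotation, and lola and nerfin-1 had none. A segment is a piece of a gene in that annotation, and the authors compared how much of the gene's RNA covered it in mutant and wild-type embryos.

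The first experiment sequenced stranded libraries of poly(A) RNA, extracted with phenol-chloroform, from pooled male embryos that were mutant for elav, fne or rbp9, alone or together. In the late window of 18 to 22 h there were 5 elav-fne, 3 elav and 4 fne libraries, against 4 wild-type libraries. In the early window of 14 to 16 h there were 3 libraries each of elav-fne-rbp9, elav-fne, elav-rbp9, elav, fne, rbp9 and wild type. A further 3 fne-rbp9 libraries carry a late label but belong to an early table, and their stage is treated as unknown. In the second experiment each stage had 3 libraries of elav-nFne, 3 of nFne and 3 of wild type. A further 2 libraries came from wild-type male adult heads. The labels give neither the alleles nor whether replicates came from separate crosses. The spread behind the authors' p-values is that among these libraries and may be technical. Each embryo library is a whole-embryo sample, in which fewer cells of a type and less of a transcript form per cell cannot be told apart.

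ELAV, FNE and RBP9 are RNA-binding proteins of neurons. ELAV is known to favour distal cleavage and polyadenylation sites, so that many neuronal transcripts carry longer 3′ UTRs than the same transcripts in other tissues. The longer UTR offers more room for microRNAs and RNA-binding proteins, while the encoded protein stays the same. Transcription factors of neural development set which neurons form and which subtype they become. In neuroblasts, the fly neural stem cells, hb, Kr, cas and grh act in a temporal series that gives successive neurons different identities. The label nFne stands, as far as the study is known, for the nuclear form of FNE. Each mutant was set against wild type, and the second experiment has no group that lacks elav alone. Its elav-nFne folds therefore cannot tell the loss of nFne from the loss of elav.

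All embryo values are the authors' own comparisons, given as log2 folds (mutant over wild type) of the use of a segment. Values per embryo library and standard errors were not used here. The first experiment has 10 tables, and they list only entries whose adjusted p is under 0.0001 and whose log2 fold is under -0.75. A gene that is not listed was therefore not shown to be unchanged, and no increase could appear. Each table also gives a fitted use score for the mutant and for wild type. The scale of these scores is not given in the sources used here, and a log2 fold is not their plain ratio. Within a stage all mutants of an experiment were set against the same wild-type libraries, and folds of different mutants are given side by side without being independent. Head samples carried eye, nerve and glial transcripts, with ninaE, a rhodopsin gene, at 7648 and 7960 TPM, nSyb, of synaptic vesicles, at 291 and 296 TPM, and repo, a glial factor, at a mean of 14.8 TPM. TPM is a level scaled for gene length and library size. Muscle RNA was also present, with Mhc at 575 and 642 TPM, and so was fat body RNA, with Lsp2 at 169 and 113 TPM. Another fat body marker, fit, was far lower, at 2.42 and 6.75 TPM. The haemocyte marker Hml had a mean of 4.96 TPM. The germ line marker bam was at 0.0069 TPM in replicate 1 and 0 in replicate 2.

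The decreases lay in 3′ UTRs, in most genes at the far end. In the first experiment, 11 of the 37 genes had 41 entries between them, and every listed base lay in a 3′ UTR of the Ensembl annotation. Other transcripts of the same gene use 13.4% of the listed bases as coding in the late br entry and 6.26% in the toy entry. The authors coded 36 of the entries TE and 5 LE, codes that the sources used here do not define. The last 3′ UTR segment of the gene was part of 25 of the 41 entries, in 8 of the 11 genes. Codes and positions were not counted over all listed genes, so they describe these entries and are not shown to be particular to them. The jim segment was the longest, with 6744 bases at 3L:22789233-22795976 on the minus strand in dm6, after 1584 non-coding UTR bases. The scrt segment held 3175 bases at 3L:3990829-3994003, after 2773 such bases, and the chinmo segment held 2594 bases at 2L:1702089-1704682, after 5234. At ct, segments 16 and 17 of 18 covered X:7676854-7678754, 1901 bases, with 2239 non-coding UTR bases before them and 105 after. The pros entry was placed differently. Its segments 17 and 18 of 19 covered 3R:11393590-11395401, and a single unlisted segment continued the UTR for another 12226 bases.

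**Figure D1:**
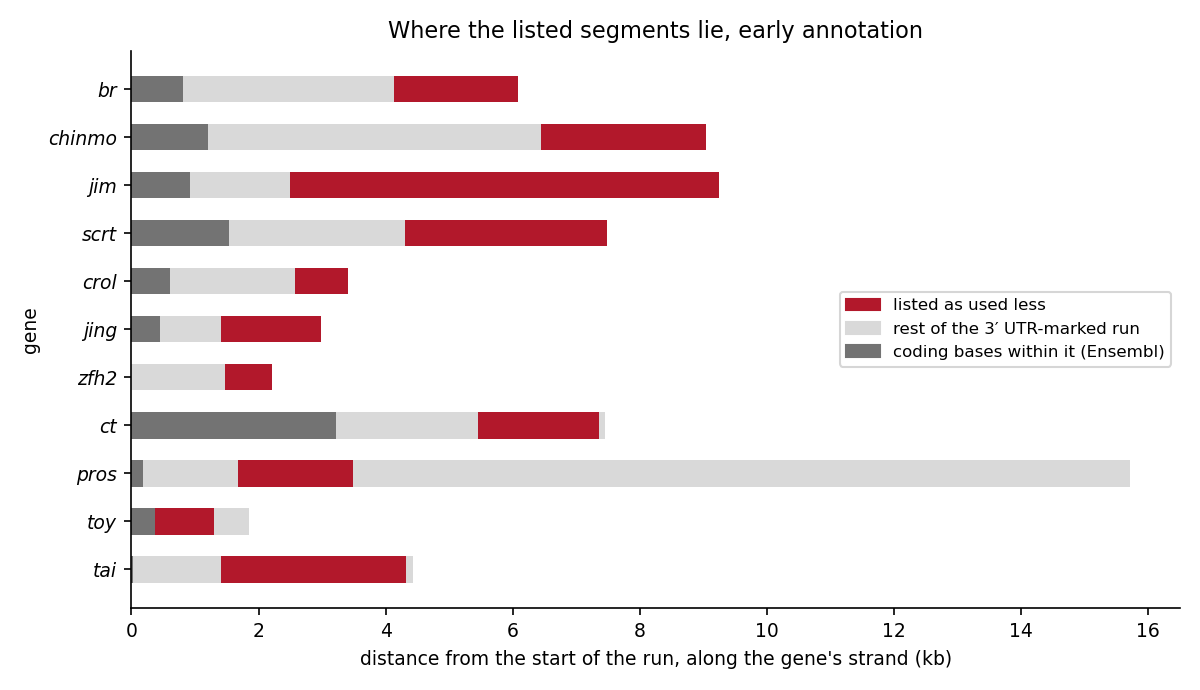
The bars show, for the 11 genes with an entry, the contiguous run of segments marked as 3′ UTR in the early annotation, in kb from its start along the gene's strand. Red marks the listed segments, dark grey the coding bases of the run and light grey the rest. The listed stretch reaches the end of the run in 7 of the genes; 105 bases follow it in ct, 118 in tai, 561 in toy and 12226 in pros.

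3′ UTR segments of ct, pros, scrt, crol, jim, jing and br fell in early embryos without elav and fne. At 6 of these 7 genes, all but scrt, the early elav-fne fold was the lowest of the early tables in which the gene was listed. Of these 4 early mutants, elav-fne also had the lowest median over all listed genes. That median was -1.73 in elav-fne, -1.54 in elav-fne-rbp9, -1.47 in elav-rbp9 and -1.41 in elav. The order is thus not particular to the 7 genes, and it was not tested. In early elav-fne embryos 7 of the 35 genes were listed, at a background of 1.86% of the 12624 genes with at least 2 segments. The median log2 fold was -2.89 for the 7 genes and -1.73 for all 235 listed genes in the authors' deposited table. In early elav embryos 9 of the 35 were listed, at a background of 1.47%, with a median of -1.28, against -1.41 for all 185 listed genes in the authors' deposited table. In early elav-fne-rbp9 embryos 10 were listed (background 2.25%) and in early elav-rbp9 embryos 5 (background 1.18%). In embryos that kept elav none was listed, in fne early (background 0.459%), rbp9 early (0.0475%), fne-rbp9 (0.309%) or fne late (0.0634%). The members were chosen with these lists known, so the shares are no evidence about the group. The length of the UTR moved with the listing: the median length marked as 3′ UTR was 3047 bases for the 35 genes and 757 for all genes with such a segment, and 3458 for the 235 genes listed in early elav-fne. Its part in the counts was not tested.

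The homeodomain gene ct had the largest decrease of the 41 entries, in early elav-fne. It encodes Cut, which specifies sensory organs and the dendrite shape of sensory neurons. In the authors' deposited table for early elav-fne its log2 fold was -8.83 (adjusted p = 5.0e-59), rank 4 of 235 entries from the largest decrease. The fitted use score was 2.18 in elav-fne embryos and 19.1 in wild type. At the same segments the authors' deposited tables gave -3.70 in elav-fne-rbp9, -4.31 in elav-rbp9 and -5.79 in elav. The fitted score was 2.32 in elav-fne-rbp9 embryos against 11.5 in wild type, 4.92 in elav-rbp9 embryos against 19.6 in wild type, and 3.99 in elav embryos against 23.9 in wild type. These wild-type scores differ although all 4 tables use the same 3 wild-type libraries, so scores can be read only within a table. The mean normalised count, taken over the libraries of a comparison, was low, at 32.5 for the elav-fne comparison and 57.7 for the elav-fne-rbp9 comparison.

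The homeodomain gene pros was listed in all 4 early tables of mutants without elav. Its product Prospero ends the self-renewal of neuroblast daughters and starts their differentiation. The log2 folds in the authors' deposited tables were -2.85 in elav-fne-rbp9, -2.94 in elav-fne, -2.25 in elav-rbp9 and -1.98 in elav, with adjusted p-values between 8.9e-116 and 3.6e-46. The elav-rbp9 entry covered only segment 17, with 1488 bases, and the others segments 17 and 18, with 1812. In elav-fne embryos the fitted use score was 8.80, against 23.2 in wild type. The other 10 genes grouped here as homeodomain genes had no entry in any table. That group leaves out zfh1 and zfh2, counted with the zinc finger genes, and the Pax6 genes, which also carry a homeodomain.

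**Figure D2:**
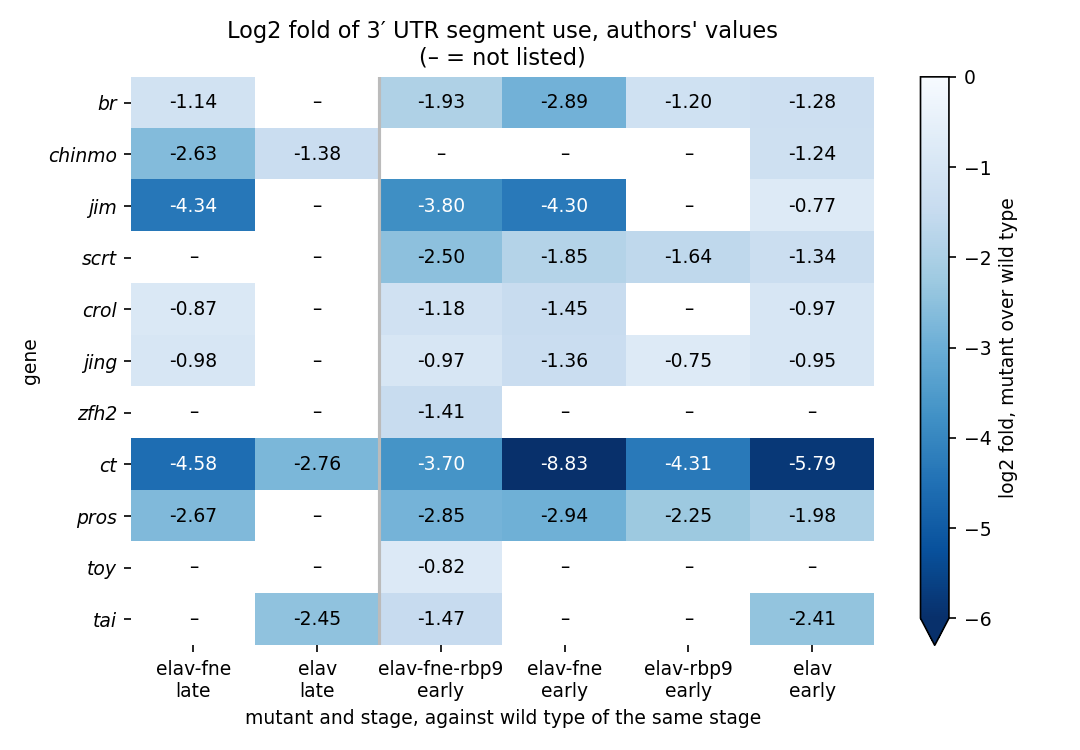
Each cell gives the log2 fold from the authors' deposited tables (mutant over same-stage wild type) for a gene (rows) in a table (columns), and darker blue is a larger decrease, saturating at -6. A dash means that the gene was not listed. The gene ct has an entry in every column, from -2.76 in late elav to -8.83 in early elav-fne, while jim has -0.77 in early elav and -3.80, -4.30 and -4.34 in the tables of mutants that lack elav and fne together.

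Among the BTB zinc finger genes, br and chinmo were listed, ttk, ab and fru were not, and lola had no segments. These proteins join a BTB domain, through which they pair, to zinc fingers. Broad, encoded by br, is an early response factor of the moulting hormone ecdysone. Its last segment, 1944 bases at X:1662926-1664869, had log2 folds of -1.93 in elav-fne-rbp9, -2.89 in elav-fne, -1.20 in elav-rbp9 and -1.28 in elav in the authors' deposited tables for early embryos. The span of the gene Mur2B on the opposite strand overlaps this segment. The libraries are stranded per the labels, but how strand was used in counting is not given in the sources used here. Chinmo helps to set the temporal identity of neurons born at different times. It had a log2 fold of -1.24 (adjusted p = 6.1e-41) in the authors' deposited table for early elav and no entry in the other early tables.

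Of the other zinc finger genes, scrt and jing fell in all 4 early mutants without elav, and jim and crol in all of these but elav-rbp9, where they were not listed. The values of jim lay far apart between tables. Its log2 fold was -4.30 (adjusted p = 5.6e-51) in elav-fne and -0.77 (adjusted p = 2.4e-07) in elav, close to the limit of -0.75, at the same segment, in the authors' deposited tables for early embryos. The fitted use score was 5.56 in elav-fne embryos against 23.2 in wild type, and 23.0 in elav embryos against 29.1 in wild type. The difference between the mutants was not tested. In elav-fne-rbp9 the jim fold was -3.80 in the authors' deposited table. The mean normalised count behind these entries was low, between 17.1 and 39.5, and CG14448 lies on the opposite strand of the segment.

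Scratch, encoded by scrt, is a Snail-family factor that promotes neuronal fates. Its last segment had log2 folds of -2.50 in elav-fne-rbp9, -1.85 in elav-fne, -1.64 in elav-rbp9 and -1.34 in elav in the authors' deposited tables for early embryos. The gene rests on deeper data than most, with mean normalised counts from 164 to 324. The genes crol, an ecdysone-responsive zinc finger gene, and jing, which acts in the midline of the nervous system, fell less. In the authors' deposited tables crol had -1.18 in elav-fne-rbp9, -1.45 in elav-fne and -0.97 in elav, and was not in the elav-rbp9 list. The jing folds were -0.97 in elav-fne-rbp9, -1.36 in elav-fne, -0.75 in elav-rbp9 and -0.95 in elav in the authors' deposited tables, and the elav-rbp9 value is the smallest decrease of its list of 149.

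Taiman, a coactivator of the ecdysone receptor encoded by tai, had entries in other tables than most of these genes. Its segment of 2907 bases at 2L:9247187-9250093 had a log2 fold of -2.41 (adjusted p = 1.1e-35) in the authors' deposited table for early elav. The authors' deposited table for elav-fne-rbp9 gave -1.47 (adjusted p = 2.3e-06). Early elav-fne and elav-rbp9 embryos did not have the gene in their lists. Mean normalised counts were 22.1 for the elav comparison and 27.3 for the elav-fne-rbp9 comparison, and the gene aust overlaps on the opposite strand. The genes zfh2, for a zinc finger homeodomain protein, and toy, a Pax6 gene that acts upstream of its paralog ey in the eye, were each listed in a single table, that of elav-fne-rbp9. The authors' deposited table gave zfh2 -1.41 (adjusted p = 4.8e-05), near the limit of the list, and toy -0.82 (adjusted p = 2.2e-09). A list that holds a gene beside lists that do not is no test of the difference between the mutants.

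Late lists named many of the same genes in elav-fne, mostly with other segments. In late elav-fne embryos 7 genes were listed (background 1.36%), and 6 of these were also listed early, 1 of them with an identical segment. In late elav embryos 3 genes were listed, ct, tai and chinmo (background 0.578%), against 9 early, and 1 of the 3 had an identical segment. These are counts past the limits of each list, and the difference between stages was not tested. The overlap of late and early lists over all listed genes was not counted, so the overlap is not shown to be particular to these genes. Late and early tables share no libraries but use separate segment annotations, so only identical segments can be compared directly. At its identical segment jim had -4.34 late and -4.30 early in the authors' deposited tables for elav-fne. At its own identical segment chinmo had -1.38 late and -1.24 early in the authors' deposited tables for elav. Late elav-fne embryos listed chinmo as well, with -2.63 (adjusted p = 4.5e-98) in the authors' deposited table, where the fitted use score was 16.6 in elav-fne embryos and 33.4 in wild type.

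At the other genes the late segments had other ends. In the authors' deposited tables for elav-fne, ct had -4.58 late (1474 bases) and -8.83 early (1901 bases), and pros -2.67 late (1493 bases) and -2.94 early (1812 bases). For br the late entry was a segment of 6082 bases with -1.14, against -2.89 for 1944 bases early, in the authors' deposited tables. The late segment is the whole contiguous run that ends the gene, and other transcripts use 13.4% of it as coding. The late value is therefore not one of the distal UTR alone. The authors' deposited tables gave crol -0.87 late and -1.45 early, and jing -0.98 late and -1.36 early. In late elav embryos the folds in the authors' deposited table were -2.76 for ct and -2.45 (adjusted p = 1.2e-05) for tai. The gene scrt was not in the late elav-fne list and is the single gene listed early but not late in that mutant.

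The second experiment measured 9 of the 37 genes, since its tables hold 174 genes taken from the early elav list, 173 of them with a fold. Its segments are the same at both stages, and its libraries are not shared with the first experiment. The authors give a fold weighted over the segments of a gene and the smallest adjusted p over them, and an adjusted p under 0.05 counts here as a pass. The smallest of several p-values passes more easily than a single one. In late elav-nFne embryos 8 of the 9 genes passed, all lower, and 90.2% of the 173 genes did. In early elav-nFne embryos 8 of the 9 passed, all lower, and 82.1% of the 173 genes did. The share of 88.9% at either stage is near the background of a table made of genes already listed in early elav mutants. In nFne embryos 1 of the 9 passed late (background 14.5%) and none passed early (background 2.89%).

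Named genes show the size of the elav-nFne decreases. At tai the log2 fold was -5.59 (adjusted p = 1.0e-25) in late elav-nFne, the lowest of the 173 genes (rank 1), and -3.57 (adjusted p = 6.6e-04) in early elav-nFne, in the authors' deposited tables. At ct it was -4.18 late (adjusted p = 4.5e-28) and -5.47 early (adjusted p = 6.6e-20) in the authors' deposited tables. At chinmo, which had the highest mean normalised count of the 9 genes in the early table, it was -1.58 late (adjusted p = 6.4e-96) and -1.94 early (adjusted p = 3.7e-06) in the authors' deposited tables. The gene br had -0.95 (adjusted p = 0.089) late, which did not pass, and -2.73 (adjusted p = 5.7e-06) early in the authors' deposited tables. The gene crol had -0.68 (adjusted p = 0.0029) late and -1.26 (adjusted p = 0.063) early, where it did not pass, in the authors' deposited tables. The gene jim had -1.63 (adjusted p = 6.7e-24) late and -1.90 (adjusted p = 1.9e-16) early in the authors' deposited tables. For pros the authors' deposited tables gave -1.17 (adjusted p = 8.1e-04) late and -2.66 (adjusted p = 5.0e-11) early. For scrt they gave -0.75 late and -1.71 early, and for jing -0.79 late and -1.25 early, in the authors' deposited tables, and all of these passed. The late fold was nearer 0 than the early fold at 8 of the 9 genes, with tai as the exception, and these differences were not tested. The median over the 173 genes moved the same way, with -1.43 late and -1.84 early. For the 9 genes the median was -1.17 late and -1.94 early, so the shift is not particular to them.

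**Figure D3:**
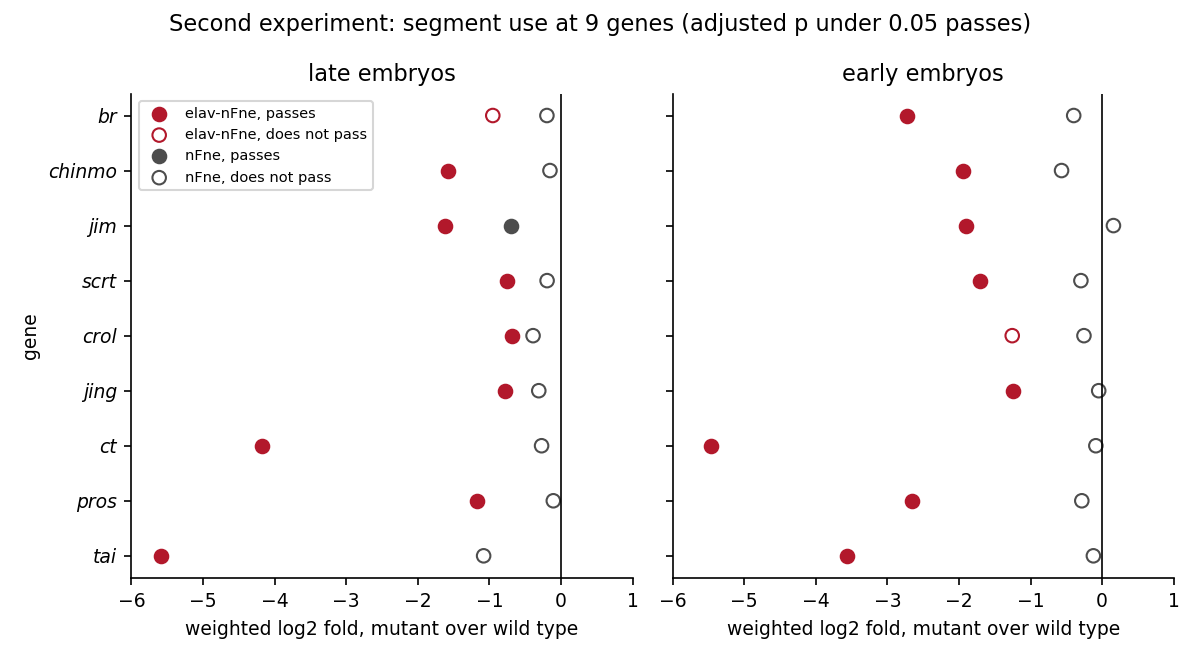
Points give the weighted log2 fold of the authors, mutant over wild type, for the 9 genes in late (left) and early (right) embryos, in red for elav-nFne and grey for nFne. Filled points have an adjusted p under 0.05. The elav-nFne points lie between -5.59 and -0.68 late and between -5.47 and -1.25 early, and jim late is the single filled nFne point.

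In nFne embryos, which keep elav, the fold of each of the 9 genes was nearer 0 than in elav-nFne embryos, at both stages, and the difference was not tested. The genes of these tables were taken from the early elav list, a choice that favours larger decreases in a mutant without elav. Over the 173 genes the elav-nFne median was -1.43 late and -1.84 early. The median log2 fold of the 9 genes was -0.27 in late nFne and -0.25 in early nFne in the authors' deposited tables, beside -0.37 late and -0.15 early over the 173 genes. The gene jim passed late, with -0.69 (adjusted p = 0.016), and had 0.16 (adjusted p = 0.75) early in the authors' deposited tables. At tai the late nFne fold was -1.08 with an adjusted p of 0.29 in the authors' deposited table, so it was larger than that of jim but did not pass. For ct the nFne folds were -0.27 late and -0.09 early in the authors' deposited tables, with adjusted p-values of 0.42 late and 0.85 early. The remaining genes, none of which passed, lay between -0.39 for crol and -0.11 for pros late and between -0.57 for chinmo and -0.05 for jing early, in the authors' deposited tables.

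Folds of elav-nFne and elav-fne at identical early segments come from separate libraries and are set side by side here. They are not the same measure. The elav-nFne fold is weighted over the segments of a gene, while the elav-fne fold is that of an entry past the limits of its list. In the authors' deposited tables pros had -2.66 in elav-nFne and -2.94 in elav-fne, and br had -2.73 in elav-nFne and -2.89 in elav-fne. The authors' deposited tables gave scrt -1.71 in elav-nFne and -1.85 in elav-fne, jing -1.25 in elav-nFne and -1.36 in elav-fne, and crol -1.26 in elav-nFne (not a pass) and -1.45 in elav-fne. Values lay farther apart at ct, with -5.47 for elav-nFne and -8.83 for elav-fne, and at jim, with -1.90 for elav-nFne and -4.30 for elav-fne, in the authors' deposited tables. Late values at identical segments were -1.63 for elav-nFne and -4.34 for elav-fne at jim, and -1.58 for elav-nFne and -2.63 for elav-fne at chinmo, in the authors' deposited tables. None of these differences was tested. The mean normalised count of jim was 76.0 for the early elav-nFne comparison and 17.1 for the early elav-fne comparison, on scales that were set separately for each experiment. For tai, which elav-fne did not list at either stage, elav-nFne gave the decreases named above.

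The 24 genes that had segments and were never listed had, for the most part, shorter 3′ UTRs. Some segments marked as 3′ UTR include coding bases, so coding bases of the Ensembl annotation were taken off for this comparison. The 11 listed genes then had a median of 4406 non-coding bases, between 1429 for toy and 15533 for pros. The 24 others had a median of 1636.5, between 182 for eve and 9624 for fru. The groups overlapped, and fru is the clearest exception by this measure. This gene for courtship circuits has 22 segments, 6 of them marked as 3′ UTR, and no entry in any table. Its marked bases lie in separate runs, and the run that ends the gene holds 3028 of 12857. After fru came ttk, which holds back neuronal fates, with 2972 bases, and inv, with 2780. In the early annotation a single 3′ UTR segment was marked at Lim3, eve, so, en and ey. The 11 listed genes had between 2 and 7 in that annotation, with 7 at ct, br and zfh2. The gene sd, which was not listed, also had 7. The listing rests on segments, so these features are descriptions.

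**Figure D4:**
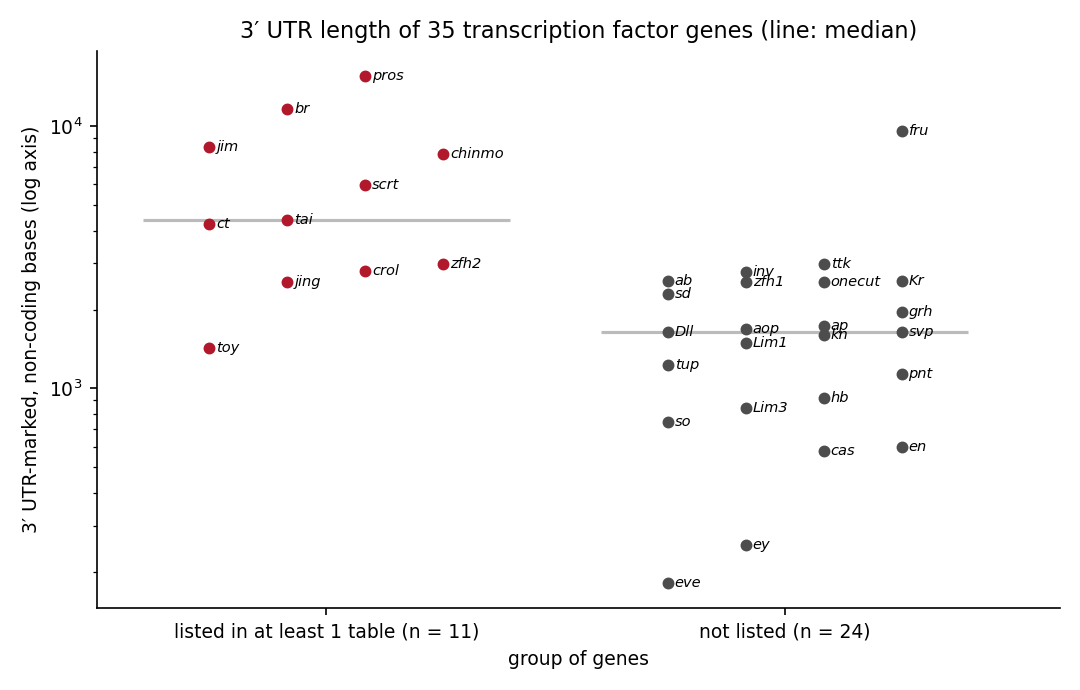
Points give the non-coding bases marked as 3′ UTR in the early annotation, on a log axis, for the 11 genes listed in at least 1 table and the 24 genes with segments that were never listed. Lines are medians, 4406 and 1636.5 bases, and fru stands apart among the genes that were not listed. Bases are summed over separate runs of a gene.

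By role, the BTB genes had the highest median 3′ UTR length, 7828 non-coding bases over 5 genes, from 2565 for ab to 11590 for br. These lengths add up separate runs of a gene. The contiguous run that ends the gene held 6082 of 15474 marked bases in br, 3028 of 12857 in fru and 2473 of 5610 in ttk. At ab it held 2098 of 4102, and at chinmo all 9034. The order of the roles therefore rests on the sum. The 9 other zinc finger genes with segments ranged from 579 bases for cas to 8328 for jim. Of the temporal factors, hb had 919, Kr 2564 and cas 579 bases, and grh, a factor of late neuroblasts, had 1949. The zinc finger gene zfh1 had 2546 bases. The 12 homeodomain genes ranged from 182 for eve to 15533 for pros, with a median of 1563. This group holds the LIM homeodomain genes Lim1 (1489), Lim3 (843), tup (1229) and ap (1734), which help to specify neuron subtypes, and the paralogs en (596) and inv (2780). Its other members without an entry were onecut (2552), Dll, a gene of appendages and their sensory organs (1637), and so, an eye gene (743). The Pax6 genes toy and ey had 1429 and 254 bases. The ETS genes pnt and aop, an activator and a repressor downstream of Ras signalling, had 1137 and 1684. The remaining genes were tai (4406), sd, a TEAD factor of Hippo signalling (2301), svp, an orphan nuclear receptor (1636), and kn, of the EBF family (1598). The number of segments per gene ran from 2 for eve to 35 for sd, with a median of 12. It was 9 to 24 among the BTB genes, 4 to 20 among the other zinc finger genes and 2 to 19 among the homeodomain genes, while ey had 11, toy 15, aop 9 and pnt 13.

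In wild-type adult heads 32 of the 37 genes reached a mean of 1 TPM, which 51.6% of the 17753 genes did. The highest level was that of onecut, with 40.6 and 42.6 TPM in the 2 replicates. It was followed by crol (29.3 and 30.6 TPM), toy (26.3 and 30.4 TPM) and pros (21.6 and 25.6 TPM). The replicates of crol and toy overlapped, so their order is not set by these data, while both onecut values lay above all others and both pros values below those of toy. The gene lola, which has no segments, had 19.8 and 20.8 TPM, and scrt 19.98 and 19.62 TPM, which overlapped. Among the genes with the deepest decreases in mutants, ct had 10.99 and 11.54 TPM, jim 15.3 and 17.7 TPM and tai 9.74 and 9.41 TPM.

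The 5 genes under a mean of 1 TPM included temporal factors of embryonic neuroblasts. The lowest were cas (0.013 and 0.017 TPM), eve (0.112 and 0.019 TPM) and nerfin-1 (0.061 and 0.094 TPM), which keeps neurons differentiated, and the other two were Kr with 0.71 and 0.73 TPM and inv with 0.93 and 0.89 TPM. Just above came en with 0.91 and 1.10 TPM and hb with 1.97 and 2.43 TPM. By role, the BTB genes ran from 3.33 ± 0.57 TPM for br to 20.3 ± 0.7 TPM for lola, the Pax6 genes were at 28.3 ± 2.9 TPM for toy and 14.6 ± 1.3 TPM for ey, and the ETS genes at 18.7 ± 1.6 TPM for aop and 3.32 ± 0.07 TPM for pnt (mean ± SD, n = 2). The remaining families ran from 3.10 ± 0.47 TPM for kn to 10.7 ± 0.3 TPM for sd (mean ± SD, n = 2). Mean levels between 5 and 15 TPM were seen for ap (13.9 TPM), ttk (11.95 TPM), zfh2 (9.73 TPM), grh (9.44 TPM), ab (8.03 TPM), so (7.58 TPM), jing (7.56 TPM), chinmo (7.42 TPM), Dll (6.68 TPM), tup (6.49 TPM), svp (6.04 TPM), Lim1 (5.86 TPM) and fru (5.26 TPM). Below these were zfh1 (4.54 TPM) and Lim3 (3.28 TPM), and the largest ratio between replicates was 1.28 among genes at or above 1 TPM. Of the 11 listed genes the median of mean levels was 11.3 TPM, and of the 24 with segments that were not listed 5.95 TPM, and the ranges overlapped, from 3.33 to 29.95 TPM among the listed genes and from 0.015 to 41.6 TPM among the others. Head levels say nothing of levels in embryos, for which no values per gene were used here.

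**Figure D5:**
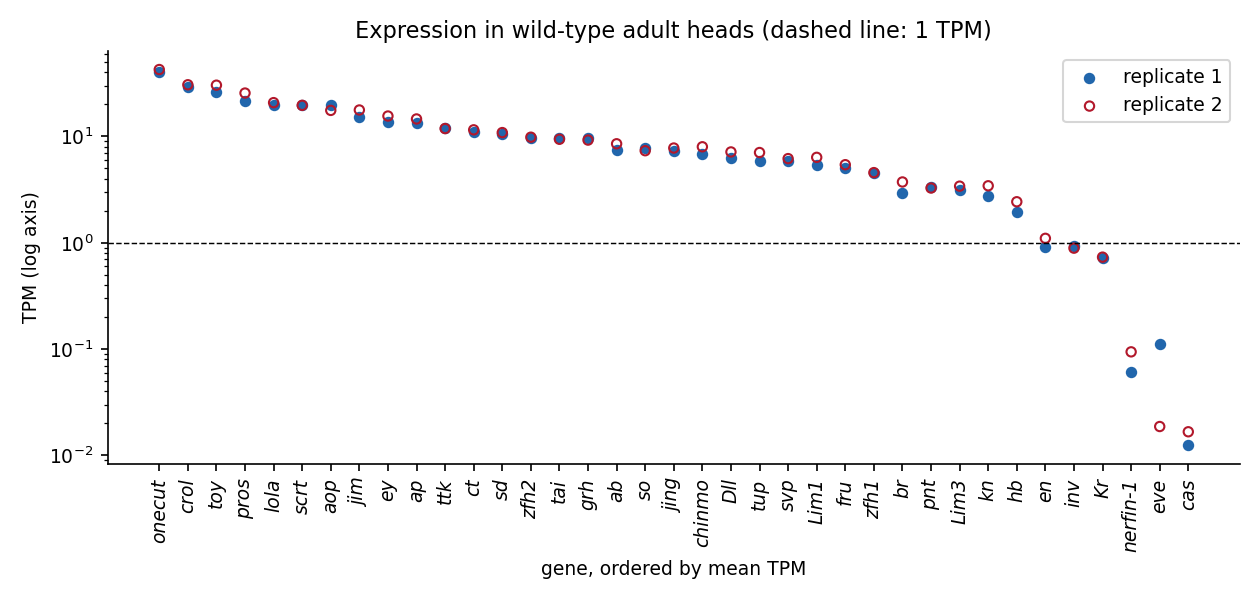
Points give the TPM of each of the 37 genes in the 2 libraries of wild-type adult heads, on a log axis, in order of their mean. The 32 genes at or above a mean of 1 TPM, the dashed line, reach up to 41.6 TPM, and nerfin-1, eve and cas lie under 0.2 TPM.

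Other transcription factors of neural development were counted from a separate list of 107 genes, all matched by symbol, 89 of which had at least 2 segments. In late embryos 3 of the 89 were listed in elav-fne (background 1.36%) and 1 in elav (0.578%). In early embryos none was listed in elav-fne-rbp9 (background 2.25%), 2 in elav-fne (1.86%), 3 in elav-rbp9 (1.18%) and 3 in elav (1.47%). The early elav-fne entries were luna, a Krüppel-like factor, with a log2 fold of -2.19 (adjusted p = 2.1e-09), and dimm, which drives the neurosecretory state, with -1.17 (adjusted p = 3.9e-05), in the authors' deposited table. In the second experiment 3 genes of the list had an entry, and all 3 passed in elav-nFne, where 90.2% of the 173 genes did late and 82.1% early. None of the 3 passed in nFne, where 14.5% did late and 2.89% early. That list, too, was drawn up with earlier results in view, and it was not matched in UTR length, so the counts are not a test against the 37 genes.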

How the data were processed

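Only processed values were used. The authors deposited log2 folds of segment use with adjusted p-values, scores and mean normalised counts, per the file headers. Values per embryo library were not used here. Neither the aligner nor the counting tool nor the test is named in the sources used here. Coordinates are dm6, per the submitters' processing notes, and the segment annotations name rtracklayer 1.40.5, per the file headers. The authors deposited head expression as TPM, and its 17753 genes sum to 360087 and 365410 TPM. Depth per library is unknown. The 37 genes and the lists were chosen with earlier results of these data known. No model was refitted and no test was made here: every p-value is the authors'. By rule, every gene with an entry is described in full, and the others in ranges by role, with the longest and shortest UTR and the highest and lowest TPM of each role. Segment lengths are unions of overlapping segments, tested on simulated data, and were set against Ensembl's BDGP6.54 gene models (release 115), which use dm6 coordinates. The second experiment numbers its segments as the early annotation does, as checked by coordinates. No genome sequence was used. Planned searches for sequence motifs were not made for that reason. The iCLIP libraries of ELAV were not analysed here. Alternatives were stricter thresholds, another pseudocount, each head replicate and other UTR measures. Calculations used Python 3.11.15, numpy 2.4.6 and pandas 2.3.3, and plots matplotlib 3.10.9.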

Additional observations from a re-analysis of the deposited data

How the results depend on the processing

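In the first experiment the counts of listed genes stayed within 1.5 times under a log2 fold of -1 or lower and under an adjusted p under 1e-6. At a log2 fold of -1 or lower the largest loss was in early elav, with 6 genes against 9. In the second experiment 5 genes passed in late elav-nFne when their absolute log2 fold also had to reach 1, against 8 otherwise. In late nFne 0 genes passed under that rule and 0 with an adjusted p under 0.01, against 1 (jim). The shares of all genes under these stricter rules were not counted, so the numbers are no result about these genes as a group. No log2 fold of these genes reached 10 in size, so leaving out such values removed nothing and was no check. The median log2(TPM + 1) of the 37 genes in heads was 3.10. It was 2.94 with a pseudocount of 0.1 and 3.28 for genes at or above 1 TPM only. Without replicate 1 or 2 it ran from 3.06 to 3.13, and the number of genes at or above 1 TPM from 31 to 32. The median 3′ UTR length of 3047 bases became 2216 when only the contiguous run that ends the gene was counted. It became 2301 when Ensembl coding bases were taken off, an alternative chosen after seeing the data. With genes of at least 2 UTR segments as the background, also chosen after seeing the data, 23.3% of the 30 such members and 4.66% of all such genes were listed in early elav-fne, and in early elav 30% of the members and 3.67% of all such genes. No paired analysis was possible because no values per embryo library were used here. The ct, jim and tai folds of the first experiment rest on low mean normalised counts, and no standard errors were used here.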

Other observations

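EcR, Eip75B and Mef2 of the separate list were listed beside the 37 genes in mutants without elav. EcR, the ecdysone receptor for which Taiman is a coactivator, had a log2 fold of -2.10 in early elav-rbp9 and -2.68 in early elav in the authors' deposited tables, and was not listed in elav-fne. In the second experiment its folds in the authors' deposited tables were -3.82 in late and -3.01 in early elav-nFne, with adjusted p-values of 9.9e-12 late and 7.8e-08 early. In nFne the authors' deposited tables gave -0.29 (adjusted p = 0.84) late and 0.21 (adjusted p = 0.81) early. Eip75B, an ecdysone-induced nuclear receptor, had -1.12 in late elav-fne and -2.08 in early elav-rbp9 in the authors' deposited tables. Mef2, known for muscle and also used in clock neurons, had -3.04 in late elav-fne, -2.15 in late elav and -1.36 in early elav in the authors' deposited tables, and was not listed in early elav-fne-rbp9, elav-fne or elav-rbp9. In the second experiment the authors' deposited tables gave Mef2 -3.00 (adjusted p = 1.9e-49) late and -2.20 (adjusted p = 2.8e-06) early in elav-nFne. In nFne the authors' deposited tables gave it -0.48 (adjusted p = 0.22) late and -0.71 (adjusted p = 0.37) early, and neither passed. The gene luna of that list had further entries too, with -1.53 in late elav-fne, -0.76 in early elav-rbp9 and -1.55 in early elav in the authors' deposited tables. Most genes of the list, usp among them, had no entry. The genes named here were picked from those with entries, so these values are a description.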
